A study of Mus musculus with 8 samples.

Results

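Among the factors through which tumour cells act on blood vessels and stroma, 10 genes were followed across a knockdown of the kinase MEK5 and a knockdown of its substrate ERK5 in 4T1 cells. The genes were chosen by name from the 24454 genes listed in the data, each matched by its Entrez Gene number: the ligand genes Vegfa, Vegfb, Vegfc, Pdgfa and Pdgfb, the PDGF receptor gene Pdgfra, the neuropilin genes Nrp1 and Nrp2, and the secreted factor genes Egfl7 and Angptl4. All 10 were found. 4T1 is a mouse mammary carcinoma line, labelled as breast cancer cells and grown here in culture. All 8 libraries came from cells that had been infected with a lentiviral hairpin vector and selected with puromycin. The hairpin was a non-targeting one in 3 libraries (shCTRL), directed against murine MEK5 in 2 (shMEK5, titled shMEK5-2) and against murine ERK5 in 3 (shERK5, titled shERK5-1), so each target was represented by a single hairpin. The series concerns the part that MEK5 and ERK5 play in the epithelial-mesenchymal transition and metastasis of breast cancer cells.

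VEGF ligands are secreted dimers that act on receptor tyrosine kinases of endothelial cells. VEGF-A, the main ligand for blood vessel growth, acts largely through the receptor encoded by Kdr, VEGF-B binds the receptor encoded by Flt1, and VEGF-C drives lymphatic vessel growth through the receptor encoded by Flt4. Neuropilins are co-receptors that bind both VEGFs and class 3 semaphorins. PDGF-A and PDGF-B chains form homodimers or a heterodimer and recruit fibroblasts and pericytes through the receptors encoded by Pdgfra and Pdgfrb.

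Values are CPM, that is, the reads of a gene scaled to a library of 1000000 assigned reads. Depth ranged from 41397315 to 53714288 assigned reads per library. Each hairpin lowered its own target: Map2k5, which encodes MEK5, averaged 36.3 ± 0.997 CPM with the control hairpin (SD, n = 3) and 14.2 ± 0.216 CPM with the MEK5 hairpin (SD, n = 2), and Mapk7, which encodes ERK5, went from 26.8 ± 1.60 to 6.53 ± 0.173 CPM with the ERK5 hairpin (SD, n = 3 each). Mapk7 was at 19.5 ± 1.19 CPM in shMEK5 (SD, n = 2), so it was lower there too, and this fall passed the limma test described below. Of 8 epithelial markers 7 had a mean of at least 1 CPM in shCTRL, and their summed level was 1831 to 2016 CPM there, 1409 to 1475 CPM in shMEK5 and 1869 to 1914 CPM in shERK5. The sum is mostly Krt18 and Krt8, which fell in both knockdowns, and hides markers that went the other way. Of the 8, shMEK5 had 4 up and 2 down and shERK5 had 5 up and 2 down (median log2 fold change 0.14 and 0.89). Over all tested genes, 48.7% passed the limma test described below in shMEK5 (23.1% up, 25.6% down). In shERK5 that share was 63.3% (32% up, 31.3% down). Cldn4 rose from 69.5 ± 4.26 to 288 ± 2.83 CPM and Cdh1 from 37.4 ± 0.224 to 112 ± 8.84 CPM in shERK5 (SD, n = 3 each; both among the genes that passed the limma test described below). The 13 endothelial markers summed to 0.725 to 1.14 CPM in shCTRL, 1.30 to 1.57 CPM in shMEK5 and 1.86 to 1.95 CPM in shERK5, with none at a mean of 1 CPM, and Kdr, Flt4, Erg, Sox17 and Emcn were at 0 reads in every library. The 11 fibroblast and pericyte markers summed to 1.23 to 2.09, 2.36 to 2.83 and 1.73 to 2.14 CPM in the same order, with Rgs5, Dcn, Lum and Thy1 at 0 reads throughout. The 6 leukocyte markers summed to between 2.03 and 3.80 CPM, with Cd68 the only one at a mean of 1 CPM or more and Adgre1 at 0 reads. Whether replicates came from separate cultures is not said in the labels, so the p-values rest on the spread of these libraries alone and that spread may be technical. In bulk RNA, fewer cells that express a gene and less RNA per cell cannot be told apart.

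In shMEK5 against shCTRL, 4 of the 10 genes rose (Pdgfb, Vegfc, Nrp1 and Egfl7) and 2 fell (Vegfa and Vegfb). In shERK5 against shCTRL, 3 rose (Egfl7, Pdgfb and Nrp2) and 5 fell (Pdgfa, Vegfa, Nrp1, Vegfb and Pdgfra). Between the knockdowns, 2 were higher in shERK5 (Egfl7 and Nrp2) and 4 were lower (Nrp1, Pdgfa, Pdgfb and Vegfc). Calls were made with limma on log2(CPM + 1), with p-values adjusted by Benjamini-Hochberg over all 11623 genes tested and a threshold of 0.05. That left 9 of the 10 genes tested, since Angptl4 did not reach 1 CPM in at least 2 libraries. Calls were common in these data: 48.7% of all tested genes were called in shMEK5 against shCTRL (23.1% up, 25.6% down), 63.3% in shERK5 against shCTRL (32% up, 31.3% down) and 39.4% between the knockdowns (22% higher and 17.4% lower in shERK5). The split by direction moved with the scaling: of the called genes 47.4% were up in shMEK5 against shCTRL and 50.9% with RLE scaling, and between the knockdowns 55.9% were higher in shERK5 and 50.2% with TMM scaling. The 6, 8 and 6 calls among 9 tested genes are to be read against those shares. Groups did not overlap for 7, 8 and 8 of the 9 genes, and for 68.7%, 67.9% and 61% of all tested genes. The median log2 fold change of the 9 genes was 0.03, -0.27 and -0.41 in the 3 comparisons, beside -0.02, 0.00 and 0.02 over all tested genes. The median size of the change, regardless of sign, was 0.29, 0.40 and 0.41 for the 9 genes, beside 0.20, 0.25 and 0.17 over all tested genes.

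**Figure D1:**
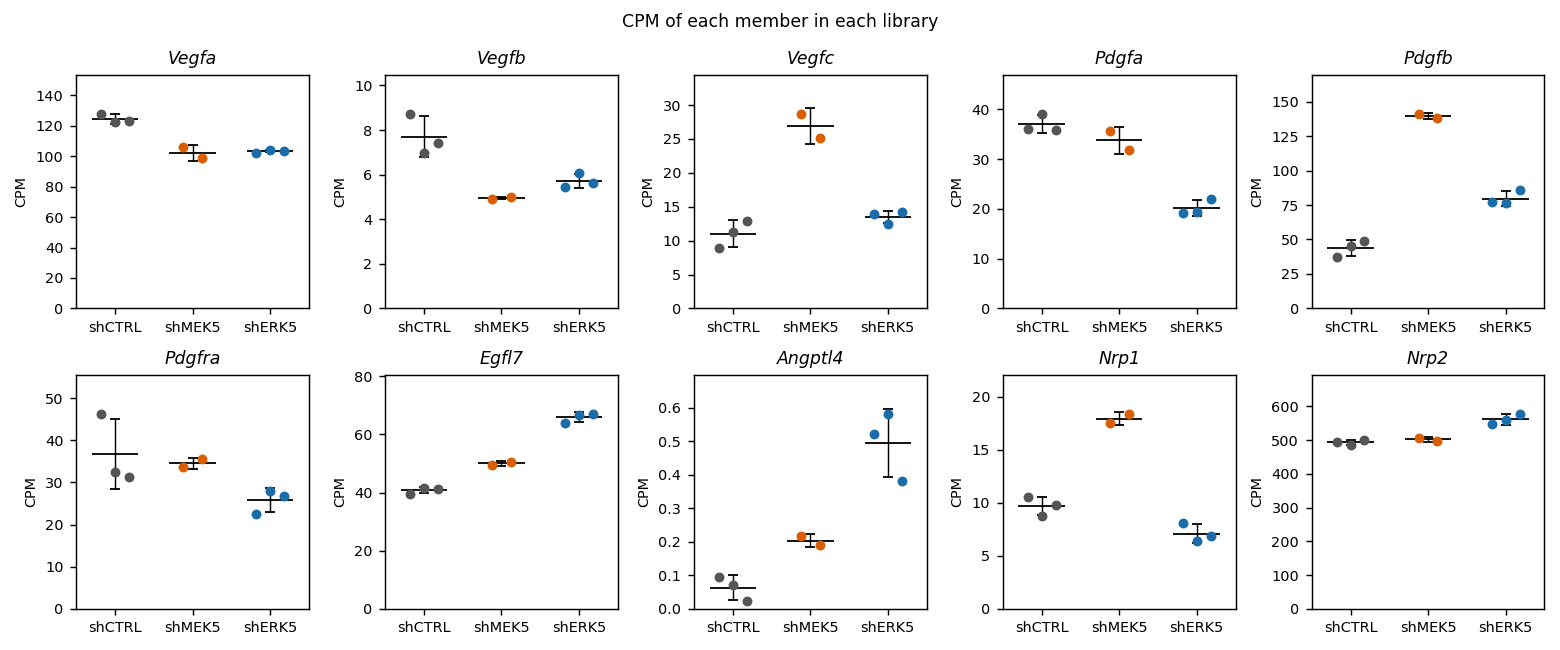
CPM of each of the 10 genes (vertical axes, linear from 0, a separate scale per gene) in shCTRL, shMEK5 and shERK5. Points are libraries, horizontal lines are group means and bars are ± 1 SD (n = 3, 2 and 3). Pdgfb, Vegfc and Nrp1 were highest in the shMEK5 libraries, and Egfl7 and Angptl4 in the shERK5 libraries.

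Of the VEGF ligands, Vegfa was the most abundant (Entrez Gene 22339; chromosome 17, 46016993 to 46032377, minus strand, GRCm38). It stood at 128, 123 and 123 CPM in shCTRL replicates 1 to 3, at 106 and 98.6 CPM in the shMEK5 libraries, and at 102, 104 and 103 CPM in the shERK5 libraries. Every knockdown library lay below every control library, and the shMEK5 libraries spanned the shERK5 ones. Vegfa fell by 0.28 on the log2 scale in shMEK5 (SE 0.05, limma adjusted p = 0.00109) and by 0.27 in shERK5 (SE 0.05, limma adjusted p = 0.000478), that is to 82.1% and 83.0% of its control level. Between the knockdowns the log2 difference was 0.02 (SE 0.05, limma adjusted p = 0.823). The gene-level values hold no information on the Vegfa splice forms, which differ in how tightly the protein binds the matrix.

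Vegfb (Entrez Gene 22340; chromosome 19, 6982472 to 6987651, minus strand) encodes a ligand known more for effects on fatty acid uptake and vessel survival than for vessel growth. Its CPM was 8.74, 6.97 and 7.40 in shCTRL, 4.90 and 4.99 in shMEK5, and 5.45, 6.07 and 5.62 in shERK5. The 3 groups did not overlap. Vegfb fell by 0.54 in shMEK5 (SE 0.10, limma adjusted p = 0.00116) and by 0.37 in shERK5 (SE 0.09, limma adjusted p = 0.0039) on the log2 scale. The difference between the knockdowns, 0.17 (SE 0.10), was not called (limma adjusted p = 0.183).

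Vegfc (Entrez Gene 22341; chromosome 8, 54077532 to 54186454, plus strand) moved the other way, and mainly in shMEK5. It was at 8.95, 11.3 and 12.9 CPM in shCTRL, at 28.7 and 25.1 CPM in shMEK5, and at 13.9, 12.5 and 14.2 CPM in shERK5. Both shMEK5 libraries lay far above the other 6, whereas the shERK5 and shCTRL libraries overlapped. In shMEK5 Vegfc rose 2.44-fold by the ratio of mean CPM, with a log2 fold change of 1.22 (SE 0.13, limma adjusted p = 4.99e-05). The shERK5 value was 0.28 (SE 0.12, limma adjusted p = 0.0544). DESeq2 on recovered reads put this change under the threshold (adjusted p = 0.0445), and so did leaving out control replicate 3 (0.39, limma adjusted p = 0.0132) or shERK5 replicate 2 (0.33, limma adjusted p = 0.0477). Leaving out control replicate 1 gave 0.15 (limma adjusted p = 0.177). Vegfc was lower in shERK5 than in shMEK5 by a log2 difference of -0.94 (SE 0.13, limma adjusted p = 0.000337).

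The 250 bases before the start sites of Vegfa and Vegfc are shown because these ligands moved in opposite directions in shMEK5. They come from the RefSeq promoter table of GRCm38.p6, in which 8 of the 10 genes matched (not Pdgfb and Angptl4), and the most 5′ start was taken where several were listed. Capitals mark matches, on either strand, to the GC box GGGCGG.
Vegfa, chr17:46032378-46032627, minus strand: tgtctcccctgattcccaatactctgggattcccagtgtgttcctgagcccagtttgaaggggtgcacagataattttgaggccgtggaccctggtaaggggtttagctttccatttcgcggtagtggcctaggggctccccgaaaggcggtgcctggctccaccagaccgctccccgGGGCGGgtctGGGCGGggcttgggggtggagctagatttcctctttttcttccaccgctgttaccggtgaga
Vegfc, chr8:54077282-54077531, plus strand: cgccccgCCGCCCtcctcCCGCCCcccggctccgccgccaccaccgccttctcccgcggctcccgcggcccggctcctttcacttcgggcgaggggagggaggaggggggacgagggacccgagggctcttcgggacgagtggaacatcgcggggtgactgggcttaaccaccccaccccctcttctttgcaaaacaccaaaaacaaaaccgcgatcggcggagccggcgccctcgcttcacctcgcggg
Each window held 2 GC boxes, and 32.7% of the 32851 windows of this length in the table held at least 1. Neither held the HIF core ACGTG (16.6% of all windows) or the AP-1 letters TGANTCA (6.75%), searched in the same way, so no motif overlapped another. A second Vegfa window in the table, 250 bases before a start inside the gene, held 1 HIF core. A match is a run of letters and was not tested for binding.

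The PDGF ligand genes gave the largest fold change of the 9 tested genes, and Pdgfb was called up in both knockdowns while Pdgfa was called, down, in shERK5. Pdgfb (Entrez Gene 18591; chromosome 15, 79995865 to 80024614, minus strand) stood at 37.3, 44.9 and 48.8 CPM in shCTRL, at 141 and 138 CPM in shMEK5, and at 76.9, 76.3 and 85.8 CPM in shERK5. No groups overlapped, and shERK5 lay between the others. Pdgfb rose 3.20-fold in shMEK5 (log2 fold change 1.66, SE 0.10, limma adjusted p = 2.12e-06) and 1.82-fold in shERK5 (0.86, SE 0.09, limma adjusted p = 2.85e-05). It was lower in shERK5 than in shMEK5, with a log2 difference of -0.80 (SE 0.10, limma adjusted p = 0.000214). The fibroblast and pericyte markers, 2.36 to 2.83 CPM in sum, were also highest in shMEK5. The largest part of that sum was Cspg4, with means of 0.810, 1.69 and 1.31 CPM in shCTRL, shMEK5 and shERK5. Mean Pdgfrb and Col1a1 were also higher in shMEK5 than in shCTRL, whereas mean Des, Acta2, Col1a2 and Col3a1 were lower. These directions rest on few reads, at most 51 over a group (Col1a1 in shCTRL) and as few as 4 against 0 for Col3a1. The shCTRL and shMEK5 libraries overlapped for each of these genes, and all Col1a2 reads of shCTRL were in replicate 1. The part of these markers in the Pdgfb change was not tested.

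Pdgfa (Entrez Gene 18590; chromosome 5, 138976014 to 139000792, minus strand) was at 36.1, 39.2 and 35.9 CPM in shCTRL, 35.8 and 31.9 CPM in shMEK5, and 19.3, 19.3 and 22.0 CPM in shERK5. The shERK5 libraries stood apart from the other 5. Pdgfa fell to 54.5% of control in shERK5 (log2 fold change -0.85, SE 0.07, limma adjusted p = 4.54e-06). In shMEK5 the change was -0.13 on that scale (SE 0.08, limma adjusted p = 0.209), and the direct difference between the knockdowns was -0.72 (SE 0.08, limma adjusted p = 7.63e-05). The window before the most 5′ listed Pdgfa start is shown beside the VEGF windows, since this ligand gene was called in shERK5 and not in shMEK5. Unlike the 2 VEGF windows, it lies inside the gene span given above and not before the 5′ end of the gene.
Pdgfa, chr5:138994945-138995194, minus strand: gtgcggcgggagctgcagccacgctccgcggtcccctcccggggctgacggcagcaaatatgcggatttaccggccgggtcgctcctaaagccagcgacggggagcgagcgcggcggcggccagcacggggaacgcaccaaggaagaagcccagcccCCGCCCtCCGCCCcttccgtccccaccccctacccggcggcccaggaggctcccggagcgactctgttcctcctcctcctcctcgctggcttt
It held 2 GC boxes and none of the other motifs. In GENCODE, antisense genes overlap Pdgfa and Pdgfb, and whether the counting used strand is not known here.

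Pdgfra (Entrez Gene 18595; chromosome 5, 75151322 to 75198206, plus strand) encodes the receptor that binds both PDGF chains. It was at 46.3, 32.6 and 31.4 CPM in shCTRL, 33.6 and 35.5 CPM in shMEK5, and 22.5, 28.0 and 26.8 CPM in shERK5. Replicate 1 of shCTRL stood above the other controls, and the shERK5 libraries were below all others. Pdgfra fell by 0.48 on the log2 scale in shERK5 (SE 0.14, limma adjusted p = 0.018). Without shCTRL replicate 1 the fall was smaller, at -0.31 (limma adjusted p = 0.0141), and without shERK5 replicate 1 the call was lost (-0.39, limma adjusted p = 0.0509). The shMEK5 value was -0.06 (SE 0.16, limma adjusted p = 0.762). The difference between the knockdowns, -0.41 (SE 0.16), was not called (limma adjusted p = 0.0729), but it was called with DESeq2 (adjusted p = 0.0119), with a fit of these 5 libraries alone (adjusted p = 0.0126) and with control replicate 1 left out (limma adjusted p = 0.00453).

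The neuropilin genes behaved differently from each other. Nrp1 (Entrez Gene 18186; chromosome 8, 128358591 to 128505476, plus strand), the co-receptor for VEGF-A and semaphorin 3A, was the one gene of the 9 called in opposite directions in the knockdowns. It was at 10.5, 8.77 and 9.81 CPM in shCTRL, at 17.5 and 18.4 CPM in shMEK5, and at 8.04, 6.37 and 6.88 CPM in shERK5. The 3 groups did not overlap. Nrp1 rose 1.85-fold in shMEK5 (log2 fold change 0.83, SE 0.10, limma adjusted p = 0.000112) and fell to 73.2% of control in shERK5 (-0.40, SE 0.09, limma adjusted p = 0.00309). The direct difference, -1.23 (SE 0.10, limma adjusted p = 1.15e-05), was the largest of the 9 between the knockdowns. The window before the listed Nrp1 start is shown for that reason. This window, too, lies inside the gene span given above.
Nrp1, chr8:128358823-128359072, plus strand: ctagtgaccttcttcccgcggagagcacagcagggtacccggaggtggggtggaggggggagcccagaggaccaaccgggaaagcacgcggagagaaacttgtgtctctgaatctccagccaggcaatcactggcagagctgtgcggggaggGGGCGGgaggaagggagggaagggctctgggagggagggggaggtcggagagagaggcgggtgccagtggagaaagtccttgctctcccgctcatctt
It held 1 GC box and none of the other motifs.

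Nrp2 (Entrez Gene 18187; chromosome 1, 62703317 to 62818692, plus strand), the co-receptor for VEGF-C and semaphorin 3F, was the most abundant of the 10. It stood at 495, 486 and 500.3 CPM in shCTRL, 507 and 498 CPM in shMEK5, and 548, 559 and 578 CPM in shERK5. The shERK5 libraries were above all others, and shMEK5 overlapped shCTRL. Nrp2 rose by a small amount in shERK5, to 1.14 times control (log2 fold change 0.19, SE 0.04, limma adjusted p = 0.00233), and the log2 fold change in shMEK5 was 0.03 (SE 0.05, limma adjusted p = 0.666). The difference between the knockdowns, 0.16 (SE 0.05, limma adjusted p = 0.0167), was lost when either shMEK5 library was left out (0.17 and 0.15, limma adjusted p = 0.0683 and 0.104 for replicates 1 and 2) and without shERK5 replicate 3 (0.14, limma adjusted p = 0.0757). An antisense gene overlaps Nrp2 in GENCODE, and so does a same-strand gene, Gm37121, which has no value here.

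**Figure D2:**
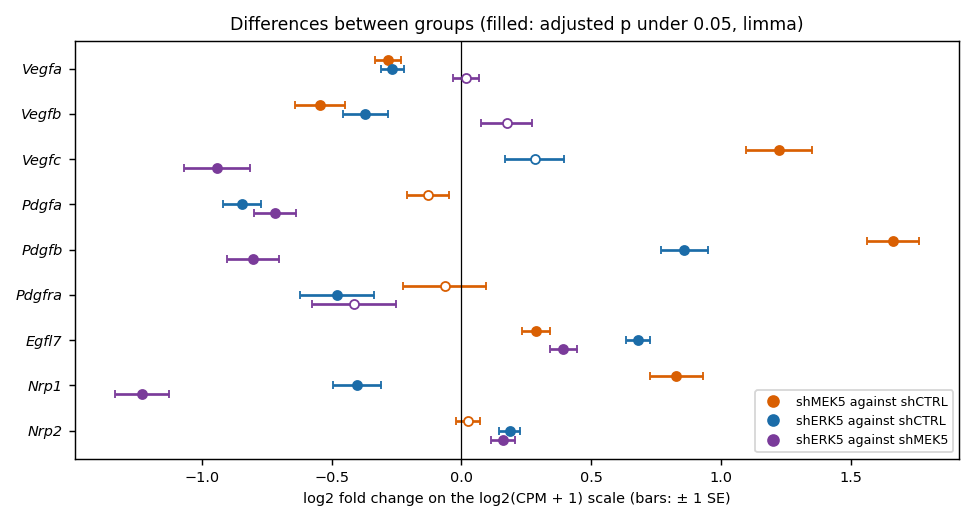
Log2 fold changes on the log2(CPM + 1) scale (horizontal axis) of the 9 tested genes in the 3 comparisons, with bars of ± 1 SE; filled points passed an adjusted p of 0.05 by limma. Nrp1 lies at 0.83 in shMEK5 and -0.40 in shERK5, and Pdgfb has the largest value, 1.66 in shMEK5.

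Egfl7 (Entrez Gene 353156; chromosome 2, 26581083 to 26592682, plus strand) encodes a secreted matrix-bound protein best known from endothelial cells. It was at 39.6, 41.7 and 41.2 CPM in shCTRL, 49.4 and 50.6 CPM in shMEK5, and 64.0, 66.7 and 67.1 CPM in shERK5. The 3 groups were well apart and each was tight. Egfl7 rose 1.23-fold in shMEK5 (log2 fold change 0.29, SE 0.05, limma adjusted p = 0.00132) and 1.62-fold in shERK5 (0.68, SE 0.05, limma adjusted p = 1.21e-06). It was higher in shERK5 than in shMEK5 by 0.39 (SE 0.05, limma adjusted p = 0.000245). The summed endothelial markers followed the same order of groups, from 0.725 to 1.14 CPM in shCTRL to 1.86 to 1.95 CPM in shERK5. Single markers did not all do so. Cldn5 averaged 0.220, 0.413 and 0.690 CPM in shCTRL, shMEK5 and shERK5. Tie1 was lowest in shMEK5 (0.316, 0.223 and 0.636 CPM in that order), and Pecam1 was highest there (0.0859, 0.231 and 0.116 CPM). Kdr, Flt4, Erg, Sox17 and Emcn were at 0 reads in every library, and the sum stayed below 2 CPM. The part of such transcripts in the Egfl7 change was not tested. A same-strand gene, Gm20532, overlaps Egfl7 in GENCODE and has no value here.

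Egfl7 is also the host gene of miR-126, a microRNA of endothelial cells. The hairpin of miR-126a (chromosome 2, 26591357 to 26591429) lies inside the gene on the same strand, within introns of all 7 protein-coding Egfl7 transcripts of GENCODE that span it. Its mature sequence in RefSeq is given with bases 2 to 8, the seed, in capitals.
mmu-miR-126a-3p, chr2:26591402-26591423, plus strand: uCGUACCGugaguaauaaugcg
The row for Mir126a held 2 reads over the shCTRL libraries, 1 over shMEK5 and 2 over shERK5, too few to compare the groups. Whether the library preparation retains so short an RNA was not tested, so this row is no measure of miR-126. Mir126b, on the opposite strand, had 0 reads in every library.

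Angptl4 (Entrez Gene 57875; chromosome 17, 33774900 to 33781575, minus strand) encodes an inhibitor of lipoprotein lipase that also acts on vessel permeability. It was close to the limit of detection, with 5, 3 and 1 reads in shCTRL, 9 and 9 in shMEK5, and 28, 31 and 17 in shERK5, which is 0.0961, 0.0702 and 0.0219 CPM, 0.217 and 0.189 CPM, and 0.521, 0.582 and 0.382 CPM. The 3 groups did not overlap, and an exact two-sided permutation test of CPM gave p = 0.1 for shERK5 against shCTRL and p = 0.2 for shMEK5 against shCTRL, the smallest these group sizes allow. Over summed reads the rate in shERK5 was 7.83 times that in shCTRL (exact 95% interval 3.92 to 17.8), and the rate in shMEK5 was 3.16 times (1.35 to 7.98). These intervals cover counting error only. Fitted without the filter, the log2 fold change on the log2(CPM + 1) scale was 0.49 in shERK5 (limma adjusted p = 0.000159) and 0.18 in shMEK5 (limma adjusted p = 0.0435). On recovered reads the edgeR values, chosen after seeing the data, were 2.92 (adjusted p = 2.53e-05) and 1.62 (adjusted p = 0.0494). The shMEK5 call was lost when any of 6 libraries was left out, with adjusted p up to 0.174, while the shERK5 call was not lost without any single library. Even in shERK5 the level was under 1 CPM.

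Levels can be compared between genes only per length, so CPM was divided by the kilobases of exon of each gene in GENCODE, taken as the union of its transcripts. In shCTRL the order was Nrp2 (41.7 ± 0.631), Vegfa (29.0 ± 0.713), Pdgfa (11.9 ± 0.588), Egfl7 (11.4 ± 0.308), Pdgfb (10.5 ± 1.40), Vegfb (4.80 ± 0.576), Vegfc (4.51 ± 0.805), Pdgfra (3.67 ± 0.826), Nrp1 (0.991 ± 0.0894) and Angptl4 (0.0177 ± 0.0106), in CPM per kilobase (SD, n = 3). Pdgfa, Egfl7 and Pdgfb were within their spread of one another, as were Vegfb, Vegfc and Pdgfra. In shMEK5 Pdgfb, at 33.6 ± 0.575 CPM per kilobase, stood second after Nrp2 and ahead of Vegfa at 23.8 ± 1.18 (SD, n = 2 each), and Vegfc, at 11.0 ± 1.06, stood level with Pdgfa at 10.9 ± 0.866. In shERK5 Pdgfb, at 19.1 ± 1.28, and Egfl7, at 18.4 ± 0.466, followed Vegfa at 24.1 ± 0.206, and Pdgfa was at 6.48 ± 0.511 (SD, n = 3 each).

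**Figure D3:**
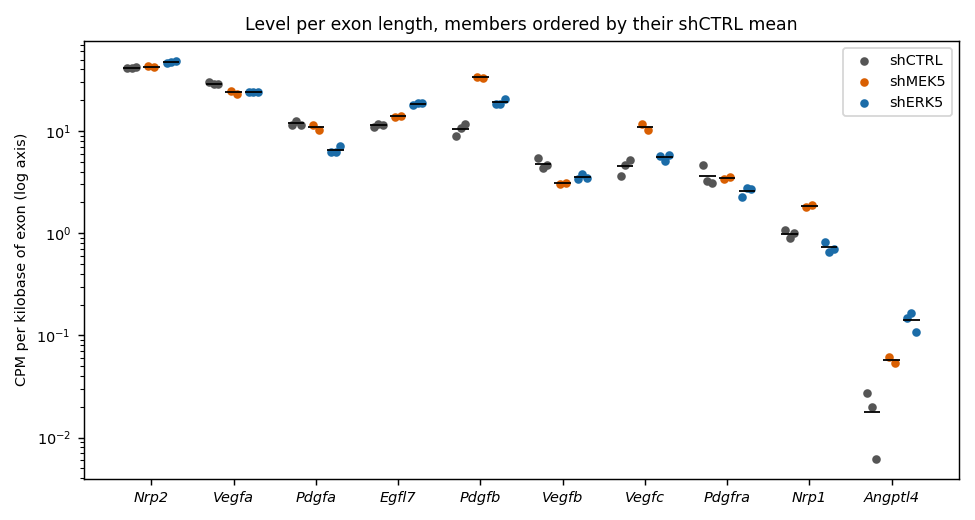
CPM per kilobase of exon (log axis) of the 10 genes, ordered by their shCTRL mean; points are libraries and short lines are group means. Nrp2 and Vegfa lead in shCTRL at 41.7 and 29.0, Pdgfb moves past Vegfa in shMEK5, and Angptl4 lies below all other genes in every group.

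Ratios within a library do not depend on the library scaling, and 3 pairs were formed after their values had been seen, so they are given as a description with no test. The ratio of Pdgfb to Pdgfa per kilobase was 0.884 ± 0.122 in shCTRL (SD, n = 3), 3.10 ± 0.194 in shMEK5 (SD, n = 2) and 2.96 ± 0.0373 in shERK5 (SD, n = 3). Behind these ratios, Pdgfb alone was called in shMEK5, while in shERK5 Pdgfb rose and Pdgfa fell. The ratio of Vegfc to Vegfa was 0.156 ± 0.0309, 0.460 ± 0.0216 and 0.229 ± 0.0167 in the same order. The ratio of Nrp1 to Nrp2 was 0.0238 ± 0.00192, 0.0432 ± 0.00209 and 0.0153 ± 0.00215, so Nrp1 was far below Nrp2 per kilobase in every group.

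**Figure D4:**
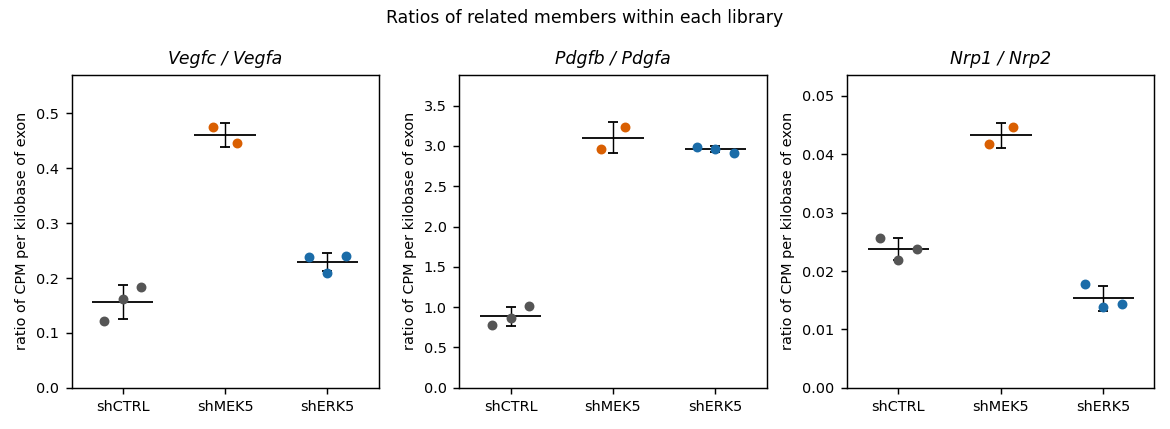
Ratios of Vegfc to Vegfa, Pdgfb to Pdgfa and Nrp1 to Nrp2, each from CPM per kilobase of exon within a library (vertical axes, linear from 0). Points are libraries, lines are group means and bars are ± 1 SD (n = 3, 2 and 3). The Pdgfb to Pdgfa ratio is near 0.884 in shCTRL and near 3 in the knockdowns.

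Receptors and further ligands were looked at to see which partners of these factors the cells carried. Of 9 other VEGF and PDGF ligand and receptor genes, 7 did not reach the filter. Kdr, Flt4 and Pdgfd had 0 reads in every library, and Vegfd, Pdgfc, Pdgfrb and Pdgfrl had between 3 and 45 reads summed over a group. Flt1, the receptor for VEGF-A, VEGF-B and placental growth factor, averaged 14.9 ± 0.611, 14.8 ± 0.240 and 11.6 ± 0.873 CPM in shCTRL, shMEK5 and shERK5 (SD, n = 3, 2 and 3). It fell in shERK5 by 0.34 on the log2 scale (SE 0.07, limma adjusted p = 0.00187). Pgf, the placental growth factor gene and a relative of Vegfa, averaged 7.47 ± 1.19, 5.54 ± 0.938 and 6.99 ± 0.909 CPM in the same order. Its log2 fold change of -0.37 in shMEK5 (SE 0.14, limma adjusted p = 0.04999) missed the threshold under 10 of 17 alternatives, among them -0.22 without shMEK5 replicate 1 (adjusted p = 0.322). Of 5 angiopoietin and Tie genes only Angpt2, a ligand that loosens vessels, was tested. It fell from 2.65 ± 0.156 CPM in shCTRL to 1.22 ± 0.119 CPM in shMEK5 and 0.982 ± 0.342 CPM in shERK5 (log2 fold changes -0.72, SE 0.14, and -0.89, SE 0.12, limma adjusted p = 0.00165 and 0.000115). On recovered reads the falls of this low gene were larger, up to -1.11 in shMEK5 (edgeR) and -1.42 in shERK5 (DESeq2).

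Semaphorins compete with VEGFs for the neuropilins and signal through plexins. Of 13 semaphorin and plexin genes, counted with the neuropilin adaptor gene Gipc1, 9 were tested. Of these, 0 were up and 4 down in shMEK5, and 3 up and 4 down in shERK5 (median -0.16 and -0.02, beside -0.02 and 0.00 over all tested genes). Gipc1 was 1 of the 3 up in shERK5. Over all tested genes 48.7% were called in shMEK5 (23.1% up, 25.6% down) and 63.3% in shERK5 (32% up, 31.3% down), and these shares are the background for every list count that follows. The shMEK5 count includes Plxnd1 at the threshold (-0.18, adjusted p = 0.0499), which was lost under most alternatives. Plxna3, a plexin partner of the neuropilins, fell in both (-0.88, SE 0.08, and -0.78, SE 0.07). Sema3f, the ligand of the neuropilin encoded by Nrp2, fell in shERK5 (-0.51, SE 0.06), whereas Sema3b fell in shMEK5 (-0.43, SE 0.05) and rose in shERK5 (0.39, SE 0.05). Of 11 genes that process these ligands, or build or cut the heparan sulphate they bind, 8 were tested. Of these, 5 were up and 0 down in shMEK5, and 3 up and 1 down in shERK5 (median 0.27 and -0.03). The 5 include Hpse, whose product cuts heparan sulphate. Over all tested genes 23.1% rose and 25.6% fell in shMEK5, and 32% and 31.3% in shERK5. Plau, the urokinase gene, rose in both (0.68, SE 0.06, and 1.08, SE 0.05), as did Ext1, a heparan sulphate polymerase gene (0.83, SE 0.05, and 0.62, SE 0.05), while Furin, the convertase that cuts PDGF and VEGF-C precursors, rose in shERK5 (0.22, SE 0.05). Its shMEK5 call (0.17, adjusted p = 0.0388) was lost without shMEK5 replicate 2 (0.14, adjusted p = 0.202) and under 5 other alternatives.

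Vegfa and Angptl4 are known targets of hypoxia-inducible factors (HIF). Of 23 other hypoxia-responsive genes 21 were tested, with 9 up and 7 down in shMEK5 and 10 up and 8 down in shERK5 (median -0.04 and 0.07, beside -0.02 and 0.00 over all tested genes), where 48.7% and 63.3% of all tested genes were called, about evenly in either direction. Pfkfb3, a glycolytic regulator, rose (1.13, SE 0.08, and 1.17, SE 0.07), as did Adm, the vessel-acting peptide adrenomedullin (1.15, SE 0.08, and 1.63, SE 0.08, or 1.95 and 2.57 with edgeR), while Ndrg1 fell (-0.86, SE 0.05, and -0.77, SE 0.05). Of 11 HIF subunit and regulator genes 8 were tested, with 4 up and 3 down in shMEK5 and 2 up and 1 down in shERK5. Hif1a fell in shMEK5 (-0.38, SE 0.08), and Vhl, whose product marks HIF for degradation, rose in both (0.43, SE 0.07, and 0.60, SE 0.06). The other calls in shMEK5 were Egln3, Egln1 and Cited2 up, and Egln2 and Hif1an down. In shERK5 they were Egln1 up and Hif1an down. Among 9 genes of the angiopoietin-like group and its lipase partners 3 were tested, with 1 up and 1 down in either knockdown; Angptl2 fell in both (-0.69, SE 0.05, and -0.51, SE 0.04), and Lpl, the lipase that ANGPTL4 inhibits, had 1 read over all libraries.

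Other pro-angiogenic genes and inhibitors of vessel growth were counted in the same way. Of 17 other pro-angiogenic genes 10 were tested, with 6 up and 3 down in each knockdown against shCTRL (median 0.80 and 0.26, beside -0.02 and 0.00 over all genes). Jag1, a Notch ligand, rose in both (1.67, SE 0.06, and 0.34, SE 0.05), as did the matricellular gene Ccn1 (1.97, SE 0.11, and 1.81, SE 0.09), and Ccn2 rose in shMEK5 (2.01, SE 0.07). The 3 that fell were Dll4, also a Notch ligand, Fgf1 and Tymp, in both knockdowns. Dll4 averaged 10.6 ± 2.17, 5.14 ± 0.134 and 6.13 ± 0.619 CPM in shCTRL, shMEK5 and shERK5 (SD, n = 3, 2 and 3). Of 14 genes listed as inhibitors 10 were tested, with 7 up and 0 down in shMEK5 and 6 up and 3 down in shERK5 (median 0.53 and 0.39). These counts leave out Thbs2, which was below the filter, with 92 reads over shCTRL, 1 over shMEK5 and 6 over shERK5. The other untested genes of the list had at most 3 reads over any group. The list holds both vasohibin genes, and Vash2, known to promote vessel growth rather than inhibit it, is 1 of the 3 that fell in shERK5 (-1.06, SE 0.07); it is named here after its value was seen. Thbs1, thrombospondin 1, rose in both (1.22, SE 0.06, and 1.11, SE 0.06), and Cxcl10, an interferon-induced chemokine, rose by 3.11 in shMEK5 (SE 0.14) with means of 1.40 ± 0.344 and 19.5 ± 1.64 CPM (SD, n = 3 and 2). Changes in this paragraph and the 2 before it are log2 fold changes on the log2(CPM + 1) scale, apart from the edgeR values of Adm, and every gene said to rise or fall passed the limma test. The knockdowns share their control libraries, so agreement between their fold changes is no independent support.

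For each of the 9 tested genes, the genes with the most similar profile over the 8 libraries were sought among 9765 named genes with a mean of at least 5 CPM. These correlations are a description: the 8 points fall into 3 groups and share library, depth and hairpin. Vegfa was closest to Septin6 and Dusp18 (Pearson r = 0.996 and 0.995), Vegfb to Crot and Rpap2 (0.995 and 0.988) and Vegfc to Abtb2 and Nxt1 (0.993 and 0.988). Pdgfa was closest to Lbh and Ncs1 (0.995 and 0.992), Pdgfb to Uap1 and Otud1 (0.996 and 0.995) and Pdgfra to Uchl5 and Hnrnpd (0.981 and 0.971). Egfl7 was closest to Cmtr1 and Hsd17b7 (0.999 each), Nrp1 to Nabp1 and Xntrpc (0.990 each) and Nrp2 to Zdhhc3 and Dgka (0.989 and 0.986). Cmtr1, an mRNA cap methyltransferase gene, was at 199, 256 and 352 CPM in shCTRL, shMEK5 and shERK5, and Abtb2 at 33.7, 79.6 and 41.4 CPM. None of these neighbours was itself among the 10 genes.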

How the data were processed

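Total RNA depleted of ribosomal RNA was sequenced from 8 libraries with a stranded kit, per the labels' protocols. The submitters' processing notes name STAR and the mm10 build. The annotation and the handling of strand in counting were not stated in these sources, so reads of Pdgfa, Pdgfb, Pdgfra, Egfl7 and Nrp2 and of genes overlapping them in GENCODE cannot be told apart with certainty. The deposited values are CPM as computed by the authors; 100% of values above 0 were whole reads within 0.01 read, and 3 reads is the limit that a value of 0 allows. The genes and lists were chosen with earlier results of these data known, and 1 list is not reported here.

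As CPM are not counts, limma 3.58.1 (trend, robust) was fitted to log2(CPM + 1) of all 8 libraries, for 11623 genes with at least 1 CPM in at least 2 libraries. Such fold changes understate the changes of low genes. All 10 genes are described. Per list and comparison at most 4 genes with the smallest adjusted p are named, cell type markers aside. As exceptions, every called HIF subunit or regulator gene is named, and Gipc1, Thbs2, Dll4, Fgf1 and Tymp are named after their values were seen. Per tested gene the 2 genes with the highest correlation are named. On recovered reads edgeR called 5614, 7344 and 4558 genes in the 3 comparisons. Replicates differed by more than sampling noise (chi-square per degree of freedom 8.22 to 42.5), and the fitting script was tested on simulated data. Alternatives were TMM and RLE scaling, a pseudocount of 0.25, no filter, edgeR 4.0.16 and DESeq2 1.42.0 on recovered reads, the compared groups alone, no robust step, a replicate block and leaving out each library.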

Additional observations from a re-analysis of the deposited data

Results flagged for a closer look

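Nrp1 was called in opposite directions in the knockdowns: it rose in both shMEK5 libraries and fell in all 3 shERK5 libraries against every control library. The difference between the knockdowns was tested directly and was -1.23 on the log2 scale (SE 0.10, limma adjusted p = 1.15e-05), with a range of -1.36 to -1.17 over 17 alternatives.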

How the results depend on the processing

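Of 27 tests of the 9 genes above the filter, 23 stayed on the same side of the threshold under all 17 alternatives; the exceptions, Vegfc and Pdgfra in shERK5 and Pdgfra and Nrp2 between the knockdowns, are given beside their values, and the cause was not tested. No called direction reversed for these genes. Without single libraries, the number of genes called between the knockdowns ran from 2912 (without shMEK5 replicate 1) to 4827, beside 4581, and that of the 10 genes higher in shERK5 than in shMEK5 from 1 to 2. Leaving out a shMEK5 library leaves a lone sample that is assumed to vary like the other groups. The labels give the groups the same replicate numbers. Same-numbered libraries did not deviate together throughout (correlations -0.19 to 0.52), so the numbers were not taken to pair the libraries. Between the knockdowns both same-numbered pairs correlated (0.46 and 0.52). These are not 2 separate signs of pairing, since the 2 shMEK5 libraries deviate from their mean by equal and opposite amounts. With the replicate block, 5763, 7462 and 4435 genes were called in the 3 comparisons, beside 5663, 7360 and 4581. TMM and RLE scaling moved the median of all genes by -0.0244 to 0.0174, and the share of called genes that were higher in shERK5 than in shMEK5 from 55.9% to 50.2% and 50.8%. The low read numbers of Angptl4 limit its precision.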
